A study of Danio rerio with 33 samples.

Results

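Wild-type zebrafish embryos that had received 5 pg of AP2-P59 were compared with wild-type embryos for which the labels name no injection, all staged to 10 somites. Each group had 3 replicate libraries, so the comparison holds 6 of the 33 libraries of the series. The labels decide which libraries belong to it, but the comparison itself was taken up with earlier results of these data known. The labels do not say which AP2 paralog or species the injected AP2 came from, in what form it was injected, what was altered in AP2-P59, how many embryos went into a library, or whether the wild-type embryos received a control injection. Values of wild-type embryos given 5 pg of AP2, 100 pg of kctd15, that dose of kctd15 with AP2, or that dose of kctd15 with AP2-P59 are set beside the comparison where they bear on it. So are values of embryos of a kctd15 mutant genotype for which no injection is named. The labels do not give the mutated paralog or allele. Each of these groups also had 3 libraries at 10 somites. RNA was polyadenylated RNA of whole embryos. In such bulk RNA, fewer cells of a type and less RNA per cell cannot be told apart.

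AP2 transcription factors, encoded in zebrafish by the tfap2 genes, are needed at the border of the neural plate for neural crest, the migratory population that forms pigment cells, peripheral neurons and facial cartilage, and also for epidermis and cranial placodes. Kctd15 is a BTB-domain protein that binds the activation domain of AP2 and represses it. Forms of AP2 that Kctd15 cannot bind have been used to ask whether the crest-inhibiting activity of Kctd15 runs through AP2, and an AP2-P59 group without kctd15 gives the level from which such an effect is counted.

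No gene passed an adjusted p of 0.05 in the edgeR quasi-likelihood test of AP2-P59 against wild type, and the smallest adjusted p was 0.45. At an unadjusted p under 0.05 there were 1199 of 22305 tested genes (5.38%), 645 of them higher (2.89%) and 554 lower (2.48%) in AP2-P59 embryos. With the replicate number as a block, edgeR called no gene either, and 2369 genes had an unadjusted p under 0.05. The labels state no such pairing. The 3 AP2-P59 libraries did not overlap the 3 wild-type libraries for 2211 genes (9.91%), with 1171 higher (5.25%) and 1040 lower (4.66%). For a single gene, 3 libraries all above 3 others give p = 0.1 in an exact two-sided permutation test, the smallest p that test can reach here. DESeq2 was run as an alternative on the same counts, but without the filter on low counts and so on more genes. It called 11 genes at an adjusted p under 0.05, with 1394 at an unadjusted p under 0.05. Without that filter edgeR called no gene, with 1401 at an unadjusted p under 0.05. The genes below are therefore described by their values in each library, and "above" and "below" name positions of libraries, not calls.

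Levels are given in CPM, estimated counts scaled to library size with TMM factors, always in the order of replicates 1, 2 and 3. The 6 libraries held 15351818 to 18317515 estimated counts. They differed within each group. The first principal component of the 6 libraries took 39.8% of the variance. It placed the AP2-P59 libraries at -26.8, -5 and 5.6 and the wild-type libraries at -20.9, 32.1 and 14.9, so the groups overlapped on it. The second took 30.2% and placed AP2-P59 replicate 2 at -34.6. Wild-type replicate 2 was also the wild-type library lowest in several tissue and chaperone gene lists described below. Markers of the tissues that a 10-somite embryo holds were measured in both groups: summed CPM of 27 somite and muscle genes was 1770 to 1820 in AP2-P59 and 1280 to 2040 in wild type, and that of 13 notochord genes 1400 to 1410 in AP2-P59 and 872 to 1540 in wild type. The 6 measured pigment cell genes, of a lineage not yet differentiated at this stage, summed to 24.2 to 26.1 and 20.4 to 26.9 CPM.

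Reads of an injected zebrafish AP2 would be counted with the embryo's own AP2 genes. tfap2a, the main AP2 gene of early crest and epidermis, stood at 240, 205 and 164 CPM in AP2-P59 embryos and at 202, 173 and 136 CPM in wild type. The groups overlapped, and the difference was 0.25 on the log2 scale (SE 0.20, adjusted p = 0.94, edgeR). tfap2c, which acts together with tfap2a in crest induction, was at 249, 241 and 255 against 270, 310 and 243 CPM, again overlapping (log2 -0.14, SE 0.15). tfap2b averaged 3.45 CPM ± 1.7 (SD, n = 3) against 3.17 ± 0.95. tfap2d and tfap2e were under the filter on low counts, with means of 0.143 and 0.176 CPM in AP2-P59 embryos. None of the 3 measured tfap2 genes had AP2-P59 libraries apart from the wild-type ones, and since the labels do not name the injected AP2, these levels are no check of the injection.

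Neural crest genes, which AP2 is known to serve, mostly overlapped between the groups. Of 15 measured members of the crest list none was called, 12 had a log2 value above 0, against 49.3% of all genes, and the median was 0.10. In AP2 embryos the list median was -0.11 against the same wild-type libraries, and that of AP2-P59 against AP2 was 0.26. In 2 members the AP2-P59 libraries lay above all wild-type libraries, against 5.25% of all genes, and in 1 they lay below, against 4.66%. crestin, a pan-crest transcript of zebrafish, was at 205, 113 and 137 CPM against 146, 120 and 154 CPM. sox10, the SoxE factor of migrating crest, was at 61.6, 36.0 and 38.4 against 46.3, 37.4 and 42.3 CPM. In both genes AP2-P59 replicate 1 alone lay above the wild-type range, and without it the differences turned to -0.17 for crestin and -0.18 for sox10. foxd3, an early crest specifier, was at 40.2, 33.7 and 22.4 against 37.5, 31.9 and 24.1 CPM, with similar ranges in both groups and a difference of 0.04 that also turned without that library.

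The 2 crest genes whose AP2-P59 libraries lay above every wild-type library were pdgfra and ets1, the latter chosen after its values were seen. pdgfra, a receptor of migrating crest and other mesenchyme, was at 88.9, 91.8 and 83.7 against 79.0, 74.2 and 74.3 CPM, a difference of 0.22 (SE 0.10, adjusted p = 0.92, edgeR). ets1, a factor of crest and also of endothelium, was at 25.0, 31.8 and 25.8 against 20.8, 16.8 and 21.5 CPM. Per-library medians of the crest list, relative to the wild-type mean, were 0.35, -0.02 and -0.01 in AP2-P59 and 0.14, -0.16 and -0.08 in wild type. Replicate 1 was the highest library of both groups.

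Epidermal genes, the other known territory of AP2, gave a list median of 0.07, with 17 of 30 measured members above 0. tp63, the regulator of basal epidermis, was at 141, 136 and 98.8 CPM against 131, 88.0 and 96.2 CPM. krt4, a keratin of the outer enveloping layer, was at 7680, 7570 and 6250 against 7600, 6390 and 6680 CPM. krt17 and krt92 differed by 0.01 and -0.10. The preplacodal genes dlx3b and six4b differed by 0.16 and -0.07, and the border gene pax3a by 0.19, each with overlapping libraries. kctd15a, the zebrafish gene whose product restrains AP2, was at 42.8, 62.8 and 33.9 against 56.4, 50.9 and 39.4 CPM, and its paralog kctd15b at 5.57, 7.32 and 3.64 against 4.28, 3.99 and 3.70 CPM.

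The largest differences among the genes named here were those of heat shock and chaperone genes. Chaperones keep proteins folded: Hsp70 and Hsp90 hold client proteins, Hsp40 and Hsp110 proteins assist Hsp70, and the inducible members are transcribed by heat shock factor when unfolded protein accumulates. Of 55 measured members none was called by edgeR, 39 lay above 0 with a list median of 0.20, and 16 had an unadjusted p under 0.05, all of them higher, against 2.89% of all genes. In 15 members the libraries did not overlap, also all higher, against 5.25% of all genes. In AP2 embryos the same 55 genes had a median of 0.12 against the same wild-type libraries. The share of any change in embryo condition or handling in these values was not tested.

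**Figure D1:**
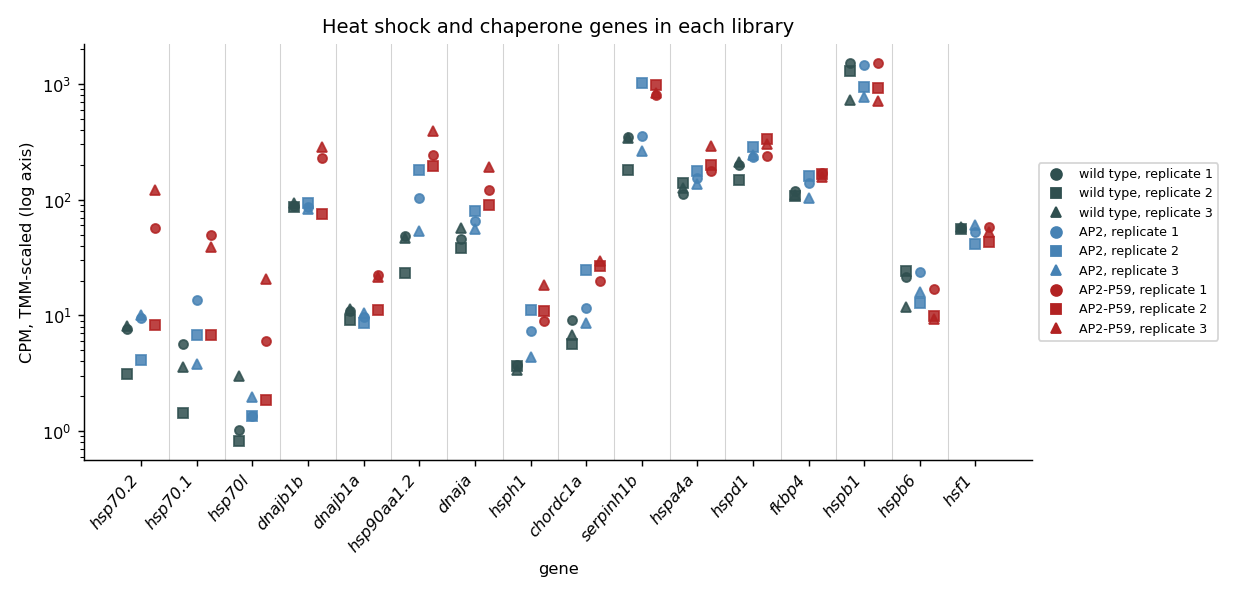
Levels of 16 heat shock and chaperone genes in CPM on a log axis, one point per library for wild-type, AP2 and AP2-P59 embryos with the symbol giving the replicate. For hsp70.2, hsp70.1, hsp70l and dnajb1b the square of AP2-P59 replicate 2 lies far below replicates 1 and 3, while for hsp90aa1.2, hsph1, chordc1a and serpinh1b all 3 AP2-P59 points lie above all wild-type points.

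A first pattern was carried by AP2-P59 replicates 1 and 3 and not by replicate 2. hsp70.2, an inducible Hsp70 gene, was at 56.9, 8.28 and 121 CPM against 7.60, 3.14 and 8.17 CPM. Replicate 2 lay barely above the wild-type values, and the highest AP2-P59 library was 14.6 times the lowest. hsp70.1 was at 49.5, 6.79 and 38.7 against 5.72, 1.44 and 3.57 CPM. hsp70l was at 6.01, 1.85 and 20.8 against 1.03, 0.827 and 3.02 CPM. These 3 genes are near-identical copies between which reads can be split, so their sum is the safer value: 112, 16.9 and 180 CPM against 14.4, 5.41 and 14.8 CPM. In the sum, replicate 2 was just above the highest wild-type library and the other two AP2-P59 libraries were far above it.

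The same 2 libraries were high for the Hsp40 genes that serve Hsp70. dnajb1b was at 231, 75.8 and 284 CPM against 88.3, 87.3 and 94.3 CPM, so that AP2-P59 replicate 2 lay below all wild-type libraries. dnajb1a was at 22.3, 11.2 and 21.3 against 11, 9.20 and 11.4 CPM. The fitted differences were 3.30 for hsp70.2 (SE 0.91), 1.13 for dnajb1b (SE 0.40) and 0.79 for dnajb1a (SE 0.27), with adjusted p of 0.86 to 0.88 in edgeR. In 17 heat shock genes that reached 5 CPM on average in either group, the highest AP2-P59 library was at least 1.5 times the lowest. The share of all genes past that ratio, and the matching count among wild-type libraries, are not given here. The 17 genes are therefore not read as an excess. They were picked by that spread, and replicate 2 was the lowest in 10 of them. Over all 55 measured members replicate 2 was the lowest AP2-P59 library in 24 (43.6%) and the highest in 11, and over all genes tested it was the lowest in 33.2%.

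A second pattern held in all 3 AP2-P59 libraries. hsp90aa1.2, an inducible Hsp90 alpha gene, was at 241, 195 and 391 CPM against 48.3, 23.1 and 46.4 CPM, a mean of 276 ± 100 (SD, n = 3) against 39.2 ± 14. The lowest AP2-P59 library lay well above the highest wild-type one, the fitted difference was 2.81 (SE 0.64), a 7.03-fold ratio, and the adjusted p was 0.86 in edgeR and 0.015 in DESeq2. Its tandem copy hsp90aa1.1, which folds myosin in muscle, was at 399, 434 and 404 against 364, 299 and 346 CPM. The sum of both copies, which does not depend on how reads were split, was 640, 629 and 796 CPM against 412, 322 and 392 CPM. The groups stayed apart in the sum, at a smaller ratio.

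Cochaperones of Hsp70 and Hsp90 showed the second pattern as well. hsph1, an Hsp110 protein that exchanges nucleotide on Hsp70, was at 8.99, 11 and 18.5 CPM against 3.76, 3.63 and 3.35 CPM (log2 1.84, SE 0.38, adjusted p = 0.55 in edgeR and 0.0072 in DESeq2). chordc1a, a partner of Hsp90, was at 19.9, 26.9 and 29.7 against 9.22, 5.62 and 6.79 CPM (log2 1.82, SE 0.43). dnaja, of the Hsp40 family, was at 122, 89.4 and 191 against 45.5, 37.9 and 56.6 CPM (log2 1.52, SE 0.36). In all of these genes the groups were separate. hspa4a, another Hsp110 relative, was at 176, 198 and 292 against 112, 138 and 126 CPM, and hspbp1, which binds Hsp70, at 31.9, 31.3 and 50.3 against 23.8, 20.6 and 21.5 CPM.

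Further members of the list with separate groups were chosen after their values were seen. Of these, serpinh1b and hspd1 belong to other compartments. serpinh1b, the collagen chaperone Hsp47 of the endoplasmic reticulum, was at 810, 985 and 842 CPM against 351, 182 and 344 CPM, with a difference of 1.59 (SE 0.46, adjusted p = 0.86, edgeR). It spread little among the AP2-P59 libraries, unlike the Hsp70 genes. hspd1, the mitochondrial Hsp60, was at 240, 335 and 301 against 200, 149 and 210 CPM. fkbp4, an immunophilin partner of Hsp90, was at 171, 168 and 158 against 119, 107 and 110 CPM. ahsa1b, which activates the Hsp90 ATPase, was at 124, 106 and 117 against 93.9, 62.7 and 76.8 CPM.

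Among the members whose libraries overlapped were small heat shock genes. hspb1, the small heat shock protein Hsp27, was at 1520, 923 and 712 CPM against 1520, 1300 and 726 CPM. hspb6 was at 17.0, 9.81 and 9.34 against 21.4, 24.1 and 11.8 CPM, and hspb8 at 30.5, 19.9 and 34.4 against 36.9, 26.3 and 39.7 CPM. In these 3 small heat shock genes the means of AP2-P59 embryos were the lower ones, with overlap. hsf1, the gene of the main heat shock factor, was at 58.5, 43.4 and 53 against 57.3, 56.1 and 57.5 CPM, and hsf2 differed by -0.25 (SE 0.25). bag3 and cdc37, partners of Hsp70 and Hsp90, differed by 0.44 and 0.21 with overlapping libraries.

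Levels of these genes in the other embryo groups ranged widely. The sum of the 3 Hsp70 genes was 24.4, 12.2 and 15.9 CPM in AP2 embryos and 41.0, 6.16 and 22.0 CPM in kctd15 embryos. In embryos given both AP2-P59 and kctd15 it was 70.9, 6.03 and 15.9 CPM. Replicate 1 of that co-injected group was also high for dnajb1b, at 224 CPM against 70.6 and 82.8 CPM. In that library a kctd15a transcript had 0 estimated counts, against 171 and 473 in replicates 2 and 3. The transcript had 495, 201 and 302 counts in kctd15 embryos and 0 to 34.1 in wild-type, AP2 and AP2-P59 embryos. From these counts it is taken as a marker of the kctd15 injection, and the labels name none. hsp90aa1.2 stood at 104, 181 and 53.4 CPM in AP2 embryos and at 231, 87.0 and 37.5 CPM in the co-injected embryos. serpinh1b stood at 354, 1010 and 265 CPM in AP2 embryos, where replicate 2 alone reached the AP2-P59 level. It lay above the highest wild-type library, at 351 CPM, in all 3 kctd15 libraries and in 2 of 3 libraries each of the AP2 group, the mutants and both co-injected groups. hsph1 lay above the highest wild-type library in all 3 AP2 and all 3 AP2 with kctd15 libraries and in 2 of 3 libraries each of the kctd15, mutant and AP2-P59 with kctd15 groups. Levels above wild type were thus not confined to AP2-P59 embryos in these genes.

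**Figure D2:**
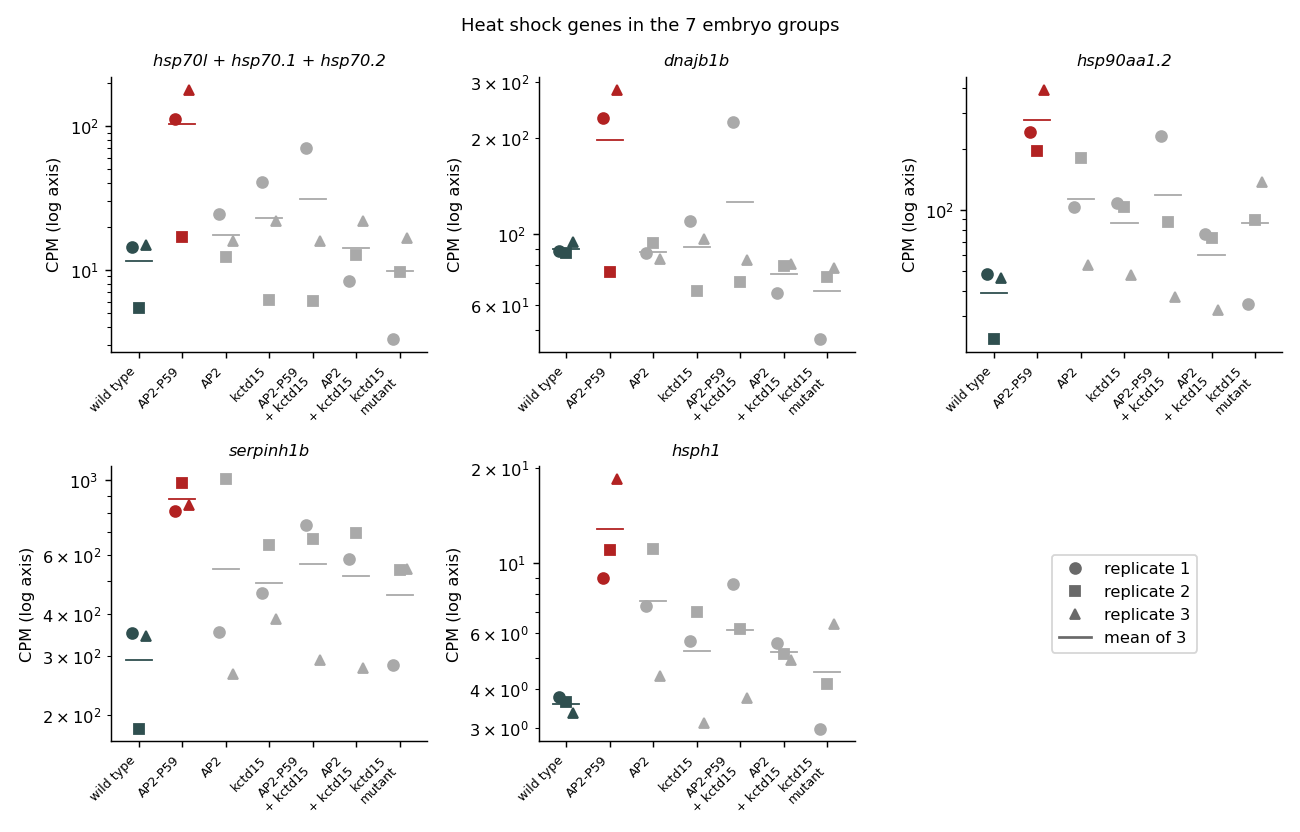
CPM on a log axis of the summed Hsp70 genes, dnajb1b, hsp90aa1.2, serpinh1b and hsph1 in the 7 embryo groups, one symbol per replicate with a line at the mean of 3 libraries. The Hsp70 sum exceeds 100 CPM in AP2-P59 replicates 1 and 3 only, and serpinh1b reaches 985 CPM in AP2-P59 and 1010 CPM in AP2 replicate 2.

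Against AP2 embryos directly, no gene passed in edgeR, and 292 of 22305 (1.31%) had an unadjusted p under 0.05. AP2-P59 lay above AP2 by 2.97 for hsp70.2 (SE 0.90), by 1.16 for dnajb1b (SE 0.40), by 0.91 for dnajb1a (SE 0.27) and by 1.29 for hsp90aa1.2 (SE 0.61), with adjusted p rounding to 1 in edgeR for each. With the replicate number as a block, 1 uncharacterised locus, LOC103910031, was called (adjusted p = 0.017, edgeR) and 705 genes had an unadjusted p under 0.05. That locus was at 73.2, 0 and 0 CPM in AP2-P59 and 10.9, 0 and 0.0507 CPM in AP2 embryos, so replicate 1 alone carried it. Against wild type, AP2 embryos had no called gene either, with 745 genes (3.34%) at an unadjusted p under 0.05, and the same locus was called with the block (1687 genes at an unadjusted p under 0.05). The AP2 differences from the same wild-type libraries were 0.33 for hsp70.2, -0.03 for dnajb1b, 1.52 for hsp90aa1.2, 1.08 for hsph1 and 0.90 for serpinh1b. For hsp70.1 the AP2 difference was 1.16 (SE 1.03), with AP2 libraries at 13.5, 6.71 and 3.80 CPM that overlapped wild type.

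Genes of protein folding in the endoplasmic reticulum formed a list with a median of 0.39, with 21 of 24 members above 0 and 7 at an unadjusted p under 0.05, all higher, against 2.89% of all genes. hsp90b1, the Hsp90 of that compartment, was at 101, 150 and 73.4 CPM against 74.1, 27.7 and 54.8 CPM. hspa5, its Hsp70, named after its values were seen, was at 579, 501 and 402 against 433, 142 and 293 CPM. In both, wild-type replicate 2 was far below every other library and the groups overlapped at their edges. In 4 of the 24 genes the groups were separate, all higher, against 5.25% of all genes. Without both number 2 libraries the list median was 0.14, and in AP2 embryos it was 0.36 against the same wild-type libraries.

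The lowest list by its median held ventral neural and Hedgehog pathway genes. Sonic hedgehog from the notochord and floor plate patterns the neural tube from below: it binds Patched receptors, acts through Gli factors, and switches on homeobox genes such as nkx2.2a, nkx2.9 and nkx6 genes in ventral progenitors, as well as ptch and hhip, whose products feed back on it. All 10 measured members were below 0, against 50.7% of all genes, with a median of -0.41. Libraries did not overlap in 5, all lower, against 4.66% of all genes, and 4 had an unadjusted p under 0.05, against 2.48%. Per-library medians relative to the wild-type mean were -0.27, -0.41 and -0.39 in AP2-P59 and 0.05, -0.12 and 0.04 in wild type, so the list medians of the groups were separate too. In AP2 embryos the list median was -0.21 against the same wild-type libraries, and the per-library medians were -0.09, -0.37 and -0.01, with replicate 2 inside the AP2-P59 range.

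The homeobox targets were nearly equal within each group. nkx2.2a was at 5.95, 5.25 and 6.47 CPM against 10.1, 10.4 and 9.26 CPM (log2 -0.75, SE 0.16, adjusted p = 0.55 in edgeR and 0.015 in DESeq2). nkx2.9 was at 8.6, 8.44 and 8.78 against 13.4, 14.4 and 12.7 CPM (log2 -0.65, SE 0.13, adjusted p = 0.45 in edgeR and 0.0056 in DESeq2). nkx6.2, which is not on the list but marks ventral neural progenitors, was at 22.0, 19.4 and 21.5 against 31.2, 34.5 and 30.8 CPM (log2 -0.62, SE 0.13). In each gene all 3 AP2-P59 libraries lay under the lowest wild-type library, and under every library of the other 5 embryo groups. nkx2.2b, the close relative of nkx2.2a and on the list, overlapped, at 9.40, 8.07 and 9.21 against 10.4, 7.07 and 9.65 CPM.

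Feedback genes of the pathway differed less. hhip, which binds and sequesters Hedgehog, was at 62.2, 51.2 and 53 CPM against 69.2, 82.5 and 75.8 CPM (log2 -0.45, SE 0.14). ptch1, a receptor, differed by -0.24 (SE 0.17), and gli1, a Gli factor that is itself a target, by -0.26 (SE 0.17). Libraries were separate for both. The ligand genes did not differ in the same way: shha averaged 36.5 CPM ± 2.6 (SD, n = 3) against 36.5 ± 5.3, and shhb 8.41 ± 0.64 against 8.29 ± 0.76. ptch1, gli1 and the ligand genes were chosen after their values were seen.

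lmo3 and six7, of no list, were also among the lowest by unadjusted p. lmo3, a LIM-only nuclear cofactor, was at 10.0, 10.7 and 10.1 CPM against 15.5, 16.2 and 16.6 CPM (log2 -0.64, SE 0.12, adjusted p = 0.45 in edgeR and 0.0035 in DESeq2). six7, a homeobox gene of the eye field, was at 23.6, 23.9 and 23.2 against 37.3, 69.0 and 28.9 CPM (log2 -0.94, SE 0.21). The AP2-P59 libraries were nearly equal in both genes, but for six7 the wild-type libraries were far apart, and without wild-type replicate 2 the difference was -0.49. In AP2 embryos the differences from wild type were -0.31 for nkx2.2a, -0.21 for nkx2.9, -0.16 for nkx6.2, -0.28 for lmo3 and -0.69 for six7. AP2-P59 differed from AP2 by -0.44 for nkx2.2a (SE 0.16), -0.45 for nkx2.9 (SE 0.13), -0.46 for nkx6.2 (SE 0.13) and -0.36 for lmo3 (SE 0.12), each with an adjusted p rounding to 1 in edgeR.

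**Figure D3:**
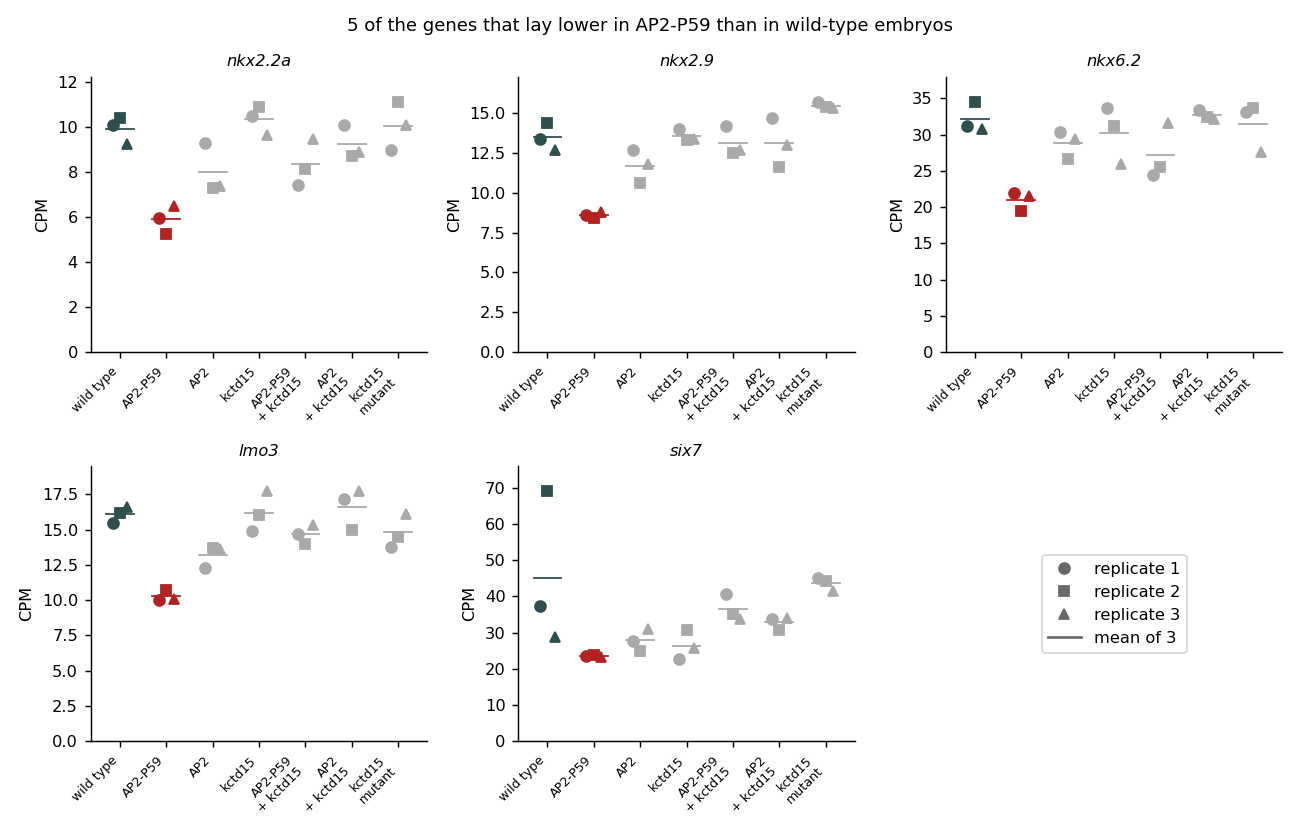
CPM of nkx2.2a, nkx2.9, nkx6.2, lmo3 and six7 in the 7 embryo groups on linear axes from 0, one symbol per replicate with a line at the mean of 3 libraries. For the first 4 genes the 3 AP2-P59 libraries lie below every library of every other group, and for six7 wild-type replicate 2 at 69.0 CPM stands far above the rest.

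Lists of other neural genes had medians on both sides of 0. The list of neural progenitor genes had 4 of 18 members above 0 and a median of -0.14, and 5 members had separate groups, all lower, against 4.66% of all genes. Among them, chosen after their values were seen, the SoxB genes sox19a and sox19b, which keep neural cells undifferentiated, were at 292, 284 and 259 against 333, 398 and 356 CPM and at 52.7, 51.7 and 56.8 against 62.7, 91.7 and 96.1 CPM. pax6b, of eye and forebrain, was at 50.7, 53.6 and 44.5 against 64.5, 113 and 63.3 CPM, with wild-type replicate 2 again the extreme. Brain region genes had a median of -0.16, with 7 of 28 above 0. In AP2 embryos the medians against the same wild-type libraries were -0.21 for the neural progenitor and -0.25 for the brain region list, and those of AP2-P59 against AP2 were 0.03 and 0.02. Genes of differentiating neurons had a median of 0.22 in AP2-P59 against wild type, with 19 of 23 above 0. This median was 0.04 without wild-type replicate 2, and in AP2 embryos it was 0.17 against all 3 wild-type libraries. wnt7ba, a Wnt ligand of neural tissue, was at 11.3, 10.2 and 11.4 against 15.3, 18.3 and 16.9 CPM.

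The remaining genes with the smallest unadjusted p were of mixed function. Among the 12 higher ones, pdcd4b, related to an inhibitor of translation, was at 23.3, 25.7 and 33.9 CPM against 12.2, 13.2 and 12.3 CPM (log2 1.14, SE 0.22, adjusted p = 0.45 in edgeR and 0.0056 in DESeq2). It was at 16.2, 22.1 and 16.3 CPM in AP2 and 16.9, 20.7 and 13.6 CPM in kctd15 embryos. Mutants were at 20.9, 24.6 and 25 CPM. All libraries of these groups lay above the highest wild-type library. With kctd15, AP2-P59 embryos were at 25.3, 15.4 and 13 CPM and AP2 embryos at 14.4, 12.7 and 12.9 CPM, overlapping wild type. psme1, a subunit of a proteasome activator, was at 12.6, 10.5 and 11 against 7.71, 5.68 and 7.12 CPM (log2 0.73, SE 0.16). acsl5, a fatty acid CoA ligase, was at 85.5, 97.4 and 91.6 against 66.5, 48.5 and 54.1 CPM (log2 0.70, SE 0.16). All 3 showed clearly separate groups, as the rule that named them requires. The glycolytic enzyme gene pgk1, the acid sphingomyelinase gene smpd1, the alpha tubulin gene tuba8l3 and lrrc58a lay 0.54 to 0.93 above wild type, and the other 5 of the 12 were the chaperone genes hsph1, hsp90aa1.2, chordc1a, dnaja and hspbp1.

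Among the 12 lower ones, beside the genes named above, were arhgap32b and tbc1d30, GTPase-activating proteins, ston2, an endocytic adaptor, the POU factor pou6f1, and desi2 and ctdspl2b. arhgap32b was at 77.2, 91.0 and 84.4 CPM against 108, 115 and 111 CPM (log2 -0.40, SE 0.10). pou6f1 was at 12.2, 14.9 and 13.3 against 16.7, 21.9 and 21.1 CPM (log2 -0.56, SE 0.15). The others differed by -0.41 to -0.58, all with adjusted p = 0.86 in edgeR. The 12 lower genes differed by -0.40 to -0.94, and the 12 higher ones by 0.54 to 2.81.

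Ionocyte genes had the highest list median, 0.55, with 8 of 9 measured members above 0 and 3 separate, all higher, against 5.25% of all genes. Ionocytes are the ion-transporting cells of the larval skin, specified by foxi3 factors within the epidermis. foxi3a was at 10.7, 15.8 and 10.9 CPM against 9.07, 6.85 and 7.18 CPM (log2 0.70, SE 0.20). foxi3b was at 12.4, 13.2 and 9.44 against 8.36, 6.52 and 6.06 CPM (log2 0.74, SE 0.22). atp1b1b, a sodium pump subunit, averaged 14.1 CPM ± 0.94 (SD, n = 3) against 7.47 ± 1.4, with no AP2-P59 library under 13.2 and no wild-type library over 8.66 CPM (log2 0.92, SE 0.27). The AP2-P59 libraries lay above all wild-type libraries in each gene. The nearest libraries of the groups were closest in foxi3b, at 9.44 against 8.36 CPM. The list median was 0.33 without wild-type replicate 3 and 0.82 without wild-type replicate 1. In AP2 embryos the list median was 0.41, and atp1b1b reached 16.6 CPM in AP2 replicate 2.

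Of the other tissues, blood and vessel genes had a median of 0.23 with 19 of 21 above 0, against 49.3% of all genes. Heart genes had 0.30 with 8 of 9, hox genes 0.20 with 36 of 45, and somite and muscle genes 0.20 with 20 of 27. Groups were separate, all higher, in 5 blood and vessel, 3 hox and 1 somite and muscle gene, against 5.25% of all genes. Of the heart genes 2 were separate and higher and 1 separate and lower, the latter against 4.66% of all genes. myb, a factor of blood progenitors, was at 27.4, 35.5 and 28.4 CPM against 24.5, 12.9 and 20 CPM. spi1b, the myeloid factor Pu.1, was at 14, 13.9 and 11 against 8.47, 5.27 and 6.55 CPM. In each gene wild-type replicate 2 was the lowest library, and the groups were separate. Per-library medians of the somite list were 0.24, 0.15 and 0.35 in AP2-P59 and 0.20, -0.47 and 0.34 in wild type, and without wild-type replicate 2 the list median was -0.07. That of the heart list was 0.09 without it and that of the hedgehog list -0.36. Against the same wild-type libraries, AP2 embryos had medians of 0.28 for blood and vessel genes and 0.11 for heart genes. Those of the hox and the somite and muscle lists were 0.16 and 0.13. AP2-P59 against AP2 gave -0.11, 0.09, 0.03 and 0.05 for these lists in that order.

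**Figure D4:**
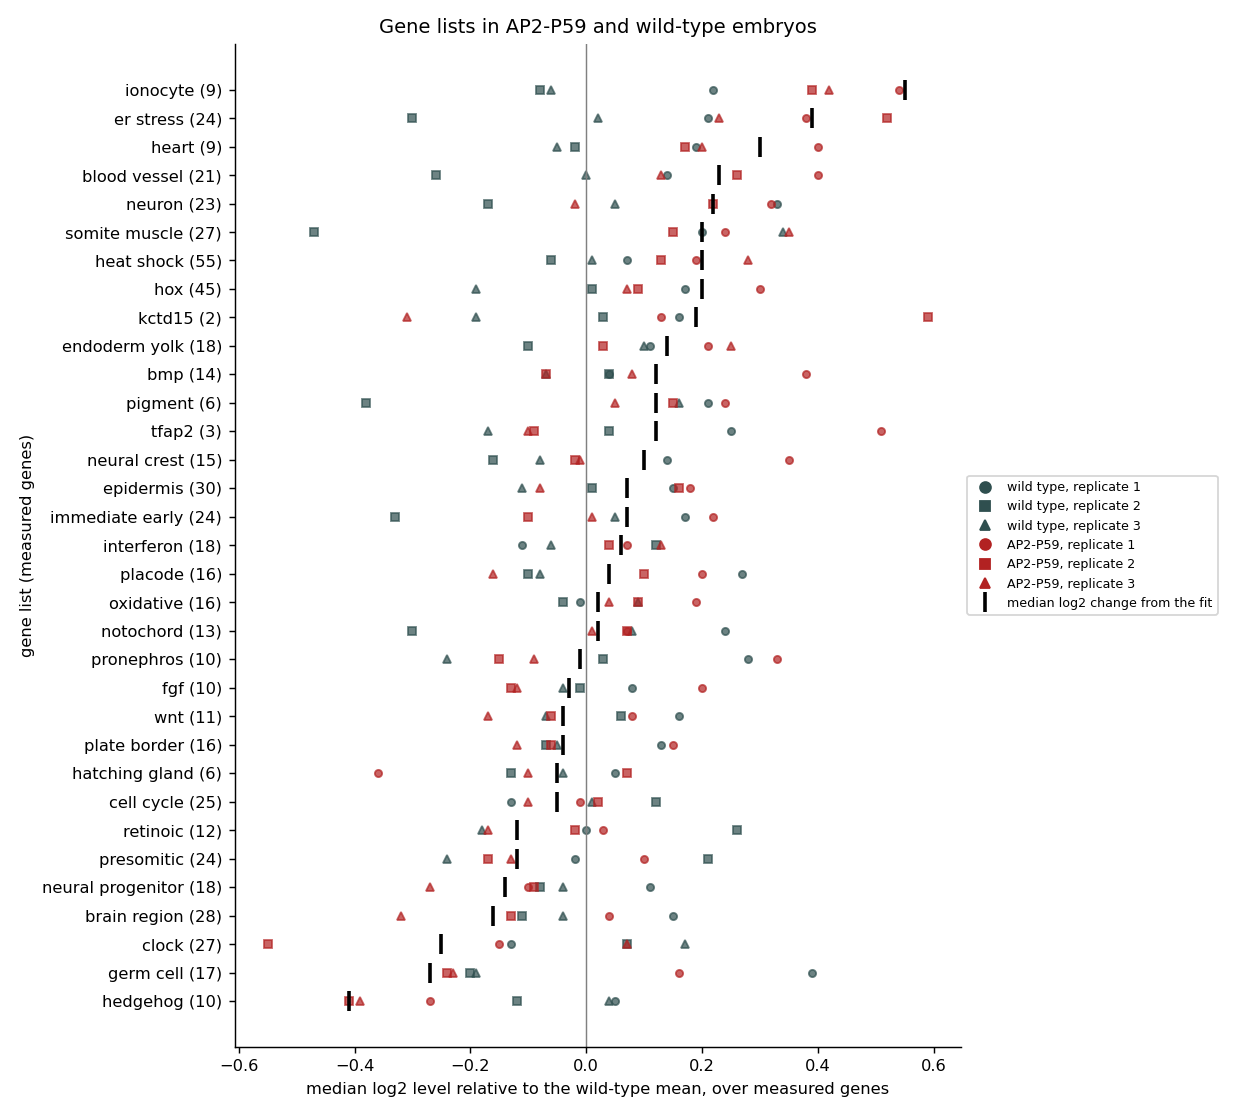
Median log2 level relative to the wild-type mean for each gene list drawn, the number of measured genes in brackets, with one symbol per library and a black bar at the median log2 change from the fit. All AP2-P59 symbols lie to the right of all wild-type symbols in the ionocyte, er stress and heat shock lists and to the left of them in the hedgehog and neural progenitor lists, and wild-type replicate 2 is the leftmost wild-type library in many of the lists drawn above 0.

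Interferon, immediate early and oxidative stress genes had list medians near 0, beside 0.20 for the chaperones and 0.39 for the endoplasmic reticulum list. Of genes of the response to DNA damage, only mdm2 and cdkn1a are given here, and both overlapped between the groups. mdm2, a ubiquitin ligase induced by DNA damage, was at 73.6, 51.5 and 87.2 against 87.8, 43.6 and 57.1 CPM, and cdkn1a, a cell cycle inhibitor, at 14.9, 2.11 and 9.95 against 16, 10.7 and 11.5 CPM, with AP2-P59 replicate 2 far below the rest. Interferon response genes had a median of 0.06, with 11 of 18 above 0 and isg15 at a mean of 0.680 CPM ± 0.31 (SD, n = 3) against 0.476 ± 0.39. In 3 of these 18 genes the groups were separate, all higher, against 5.25% of all genes, and 0 had an unadjusted p under 0.05 in edgeR. Immediate early genes had a median of 0.07 and oxidative stress genes 0.02. Groups were separate in 2 of 24 and 1 of 16 of them, all higher, against 5.25% of all genes. At an unadjusted p under 0.05 in edgeR were 1 higher and 1 lower immediate early gene and 2 higher oxidative stress genes. Over all genes tested 2.89% were higher and 2.48% lower at that p.

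The genes that varied most among the AP2-P59 libraries were not mainly heat shock genes. Among the 10 with the largest ratio of highest to lowest library, 3 were the Hsp70 genes and 4, per1b, per3, ciarta and tefa, belong to the circadian clock or its output, the daily feedback loop of Period and Cryptochrome repressors that in zebrafish is also set by light in most tissues. per1b was at 46.8, 1.24 and 41.4 CPM in AP2-P59 and at 47.3, 133 and 95.2 CPM in wild type. per3 was at 36.7, 4.6 and 54.5 against 31.7, 50.7 and 56.5 CPM, and ciarta at 44.8, 4.91 and 22.0 against 46.1, 47.7 and 32.0 CPM. AP2-P59 replicate 2 was far below the other 5 libraries in each of these genes. tefa was at 96.5, 28.8 and 217 against 55.5, 126 and 154 CPM, with replicate 2 again lowest.

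A list of 28 clock genes was added after these values were seen. In the 27 measured genes AP2-P59 replicate 2 was the lowest AP2-P59 library in 15 (55.6%) and the highest in 5. Over all genes tested it was the lowest in 33.2%. As the list was drawn up with the values above known, this count is no independent support. The median of replicate 2 relative to the wild-type mean was -0.55, against -0.15 and 0.07 in replicates 1 and 3. In AP2-P59 against wild type the list median was -0.25, with 4 genes at an unadjusted p under 0.05 in edgeR, all higher, against 2.89% of all genes. Not every clock gene was low in it: cry1bb was at 32.4, 43.4 and 53.4 CPM in AP2-P59, and per2 at 23.8, 23.9 and 91.1 CPM. For nr1d2b, a clock repressor, the low state occurred in other groups too. It was at 38.4, 8.88 and 42.7 CPM in AP2-P59, 41.0, 9.90 and 48.0 CPM in AP2 and 41.1, 12 and 53 CPM in kctd15 embryos. Wild type was at 42.1, 61.2 and 51.9 CPM. Embryos given AP2-P59 with kctd15 were at 36.2, 9.51 and 50.1 CPM, and those given AP2 with kctd15 at 7.16, 10.6 and 40.4 CPM. Replicate 2 of all 5 injected groups was low and wild-type replicate 2 was not. Replicate 1 of the AP2 with kctd15 group and all 3 kctd15 mutant libraries, at 11.8, 12.6 and 8.95 CPM, were low too, so the low state did not follow the replicate number alone. Within its group AP2-P59 replicate 2 was thus lowest for 15 of 27 clock genes and for the Hsp70 genes, but it was not alone in this. Replicate 2 also had the lowest Hsp70 sum in AP2, kctd15 and AP2-P59 with kctd15 embryos, at 12.2, 6.16 and 6.03 CPM. In AP2 with kctd15 embryos replicate 1 was lowest, at 8.31 CPM. The kctd15 mutant libraries, all low for nr1d2b, had Hsp70 sums of 3.27, 9.61 and 16.6 CPM. Wild-type replicate 2, not low for nr1d2b, was the lowest wild-type library for that sum, at 5.41 CPM. The part of the clock state in the Hsp70 levels, or the reverse, was not tested. The labels give no collection time.

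**Figure D5:**
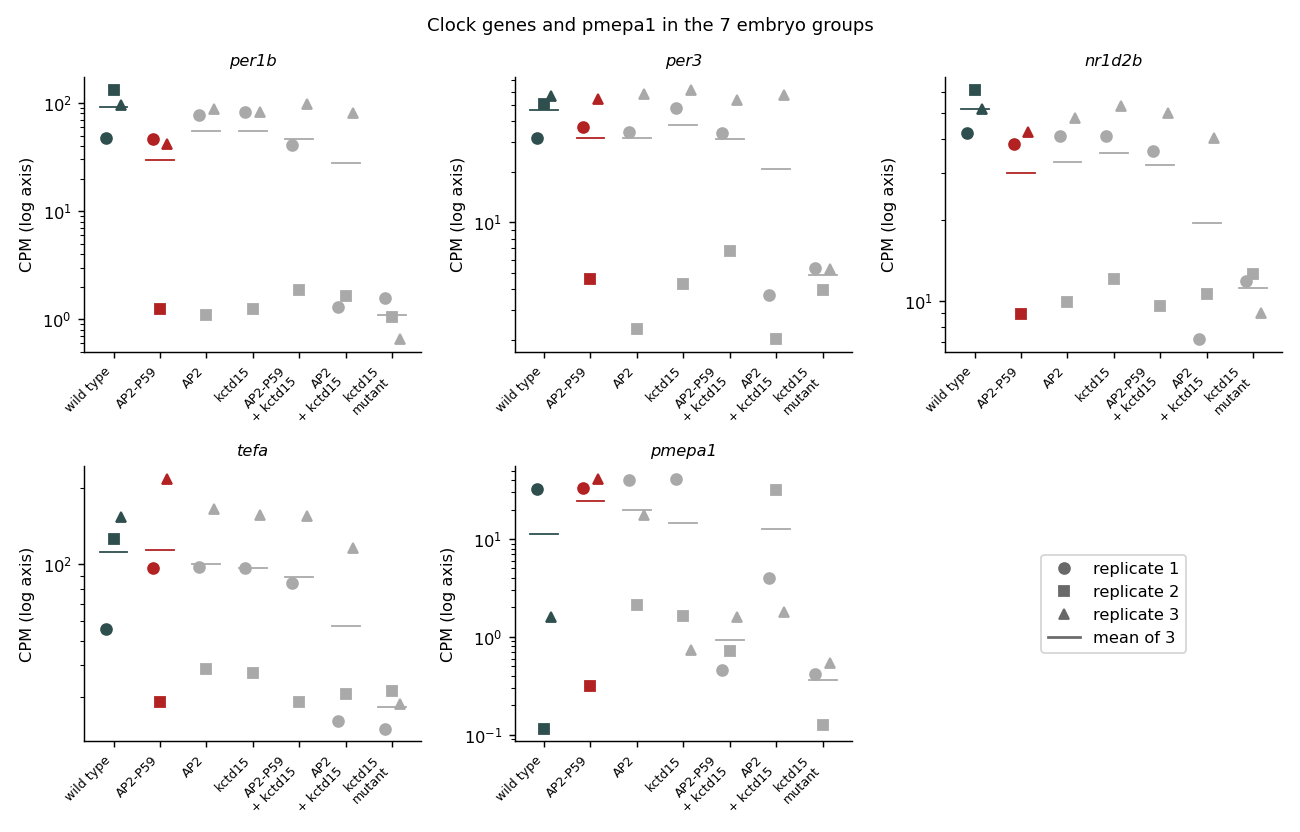
CPM on a log axis of per1b, per3, nr1d2b, tefa and pmepa1 in the 7 embryo groups, one symbol per replicate with a line at the mean of 3 libraries. AP2-P59 replicate 2 is at 1.24 CPM for per1b beside 1.1 CPM in AP2 replicate 2 and 133 CPM in wild-type replicate 2, and pmepa1 varies by library in most groups.

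The other 3 of those 10 genes varied in ways of their own. pmepa1, a target and inhibitor of TGF-beta signalling, was at 33.0, 0.316 and 40.7 CPM in AP2-P59 and at 32.1, 0.115 and 1.60 CPM in wild type. It was high in replicate 1 and near 0 in replicate 2 of both groups. klhl32 was at 1.09, 17.2 and 1.24 against 0.525, 4.26 and 1.35 CPM, high in replicate 2 of both. adgre10, an adhesion receptor gene, was at 19.6, 0.757 and 9.87 against 7.60, 4.35 and 3.66 CPM.

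Embryos given kctd15 with and without AP2-P59 offer the same injection in 6 other libraries. There, AP2-P59 with kctd15 against kctd15 alone had no called gene in edgeR and 513 (2.30%) at an unadjusted p under 0.05. One of the 6 is the co-injected replicate 1 described above, which had 0 counts of the kctd15 marker transcript, so values are given with and without it. Of the 12 higher genes named above, 9 were above 0 with a median of 0.08, where 49.4% of all genes were above 0, and without that library 3 were above 0 with a median of -0.15. Of the 12 lower ones, 8 were below 0 with a median of -0.06, and without it 7 with a median of -0.07. hsp90aa1.2 differed by 0.45 (SE 0.60) and by -0.48 (SE 0.60) without that library, and hsph1 by 0.22 (SE 0.37) and -0.09 (SE 0.41). The sign of both turned. nkx2.9 differed by -0.05 (SE 0.13) and -0.11 (SE 0.14), nkx6.2 by -0.15 (SE 0.13) and -0.08 (SE 0.14), and lmo3 by -0.14 (SE 0.12) and -0.15 (SE 0.14). Without that library edgeR again called no gene, with 491 at an unadjusted p under 0.05.

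The test of the difference between both AP2-P59 effects called no gene in edgeR, with 946 genes (4.24%) at an unadjusted p under 0.05. That difference was 2.37 for hsp90aa1.2, 1.62 for hsph1, 1.94 for chordc1a, 2.77 for hsp70.2, -0.61 for nkx2.9 and -0.46 for nkx6.2, each with an adjusted p rounding to 1 in edgeR. Without co-injected replicate 1 it was 3.30 for hsp90aa1.2, 1.94 for hsph1, 2.15 for chordc1a, 4.05 for hsp70.2, -0.54 for nkx2.9 and -0.53 for nkx6.2, each with adjusted p = 0.95 in edgeR, which called no gene there either (1039 at an unadjusted p under 0.05). These genes were named for their values in AP2-P59 against wild type, and a smaller effect in other libraries follows from such a choice, so the sign of the difference is no result. In the kctd15 pair of groups the hedgehog list had a median of -0.12, and -0.21 without co-injected replicate 1, with all 10 members below 0 either way. The heat shock list had a median of 0.01 with 31 of 55 members above 0, and without that library one of -0.13 with 13 above 0.

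The 11 genes that DESeq2 called against wild type were chordc1a, dnaja, hsp90aa1.2, hsph1, pdcd4b and psme1 on the higher side and lmo3, nkx2.9, nkx2.2a, nkx6.2 and six7 on the lower, with adjusted p of 0.0035 to 0.050. Their number depended on single libraries. DESeq2 called 0 genes when wild-type replicate 2 was left out (639 at an unadjusted p under 0.05) and 0 when AP2-P59 replicate 3 was (1575). Leaving out AP2-P59 replicate 1 gave 2 calls and leaving out AP2-P59 replicate 2 gave 18. With wild-type replicate 1 or 3 left out, 30 and 12 genes were called. pdcd4b was still called in 4 of the 6 refits, hsph1, lmo3 and nkx2.9 in 3, and the other seven genes in 2 or 1. edgeR called none of the 11, nor any other gene, in any of the refits that left out a library.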

How the data were processed

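Polyadenylated RNA from TRIzol extracts was made into stranded libraries, per the labels' protocols. Reads were trimmed with Trimmomatic 0.36 and quantified with kallisto 0.43.0 against GRCz10, per the submitters' processing notes. The deposited gene table held estimated counts (expected counts) for 30490 genes, and the deposited transcript table for 54435 transcripts. The authors' normalized table, a signal in CPM for 25374 genes, was used only as an alternative.

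Estimated counts were rounded to whole numbers and fitted with edgeR 4.0.16 (TMM, filterByExpr with a minimum count of 10, robust quasi-likelihood F test, Benjamini-Hochberg adjustment over 22305 genes, two-sided threshold 0.05) over 21 embryo libraries in 7 groups. The biological coefficient of variation was 0.241 and the scaling factors 0.92 to 1.09. Log2 values and library overlaps come from the rounded counts, and printed CPM from the unrounded ones with the same TMM scaling (overlap differed for 57 genes). Libraries of a group differed by more than counting noise. Nothing says that the replicates are separate clutches, so p-values measure the spread between these libraries. List medians by library use log2(CPM + 0.5).

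The comparison, gene lists and naming rules were chosen with earlier results of these data known, so no list is independent support. Named genes were a set of AP2, crest, epidermal and stress genes; up to 14 heat shock genes whose highest AP2-P59 library was at least 1.5 times the lowest; the 12 higher and 12 lower genes with the smallest unadjusted p, at least 5 CPM and no overlap; the 10 genes most variable among AP2-P59 libraries; and up to 3 members of each list whose median was at least 0.2 in size. Genes named outside the rule are said to be so, and some genes that the rule names are not reported here. The labels state no pairing by replicate number. Correlations of deviations between libraries of equal number were 0.70, 0.36 and 0.26 for AP2-P59 with AP2. They were 0.65, 0.26 and 0.32 for AP2 with wild type. On the first principal component of the 21 embryo libraries, replicate 1 of every non-mutant group lay at -25.3 to -14.7. Replicates 2 and 3 of those groups lay at 4.3 to 24.4. Number 1 thus went with a position shared across these groups, and the main fit held no term for the replicate number. Correlations between unequal numbers are not given for the groups above, so whether numbers 2 and 3 pair them is not settled. Alternatives were RLE size factors, no filter, DESeq2 1.42.0, limma 3.58.1 on the deposited CPM, the compared libraries alone, a replicate block and each replicate left out. The analysis steps were tested on simulated data. No sequence is shown, as the gene tables used here name another assembly.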

Additional observations from a re-analysis of the deposited data

How the results depend on the processing

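edgeR called no gene against wild type under RLE size factors (1200 genes at an unadjusted p under 0.05), no filter (1401), the 6 compared libraries alone (904) or each library left out (531 without wild-type replicate 2 to 1909 without wild-type replicate 1), nor did limma on the deposited CPM (1232 with a pseudocount of 1, 1216 with 0.1). DESeq2 called 11 genes. With a library left out, an alternative chosen after the data were seen, it called 0, 2, 12, 18 or 30. Of list members it called 5, and 0, 1, 2, 6 or 7 with a library left out. Without both number 2 libraries, also chosen after the data were seen, edgeR called 0 (498). Between AP2-P59 and wild-type libraries of equal number, correlations of deviations were 0.57, -0.01 and 0.32. Of these 6 libraries, 4 correlated best with their own number. The replicate block gave 0 calls there (2369), and 1 each in the contrasts of AP2-P59 with AP2 and of AP2 with wild type. The count of 17 variable heat shock genes was 10 to 11 with an AP2-P59 library left out and 19 on the deposited CPM. Of 2118 refitted values of 106 named genes, 2015 kept their direction and side of the threshold, 45 became called and 58, in 17 genes, changed sign.

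The sign changes in edgeR were these. Without AP2-P59 replicate 1, tfap2b was -0.37, crestin -0.17, sox10 -0.18, foxd3 -0.15, snai2 -0.02, krt17 -0.10 and dlx3b -0.01. Without AP2-P59 replicate 2, krt17 was -0.03 and klhl32 -0.80. Without AP2-P59 replicate 3, kctd15a was 0.11, snai2 -0.07, six4b 0.02, mdm2 0.00, hspb1 0.05, per2 -0.11 and tefa -0.84. Without wild-type replicate 1, kctd15a was 0.05, hspb1 0.06 and tefa -0.29. Without wild-type replicate 2, tfap2b was -0.12, mdm2 -0.04 and cdc37 -0.02. Without wild-type replicate 3, foxd3 was -0.11, snai2 -0.02 and krt17 -0.11. Without both number 2 libraries, tfap2b was 0.00, krt4 -0.04, krt17 -0.04, cdc37 -0.07 and per3 0.05. tefa was -0.27 in limma with either pseudocount and -0.34 with the replicate block. DESeq2 without the same single libraries gave these signs too, at -0.16 for foxd3, 0.04 for kctd15a, -0.03 for mdm2 and -0.83 for tefa, and otherwise at the edgeR values. At the other end, edgeR values with 1 library left out reached 0.38 for tfap2b, -0.34 for kctd15a, 0.30 for crestin, 0.26 for sox10, 0.24 for foxd3, 0.23 for snai2, 0.16 for krt17, 0.35 for dlx3b, -0.15 for six4b, 0.50 for mdm2, -0.53 for hspb1, 0.57 for cdc37, 2.75 for klhl32, 0.50 for tefa and 1.76 for per2. The cause was not tested. Of 620 refitted list medians, 586 moved by less than the SD of the list's library medians, pooled over AP2-P59 and wild-type libraries. Clone or locus names were not used for named genes, genes under about 10 counts were not tested, and depth sets no firmer limit than the spread between libraries.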
